A study of Homo sapiens with 8 samples.

Results

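Described here are 8 genes of the ubiquitin-proteasome system in a breast cancer cell line given a bacterial second messenger: UBB, UBA1, UBE2N, USP14, UCHL5, SQSTM1, VCP and NFE2L1. They were taken by gene name from a count table and an FPKM table, each of which lists 16383 genes, and all 8 were found in both. FPKM are fragments scaled to gene length and to an effective size of each library, which was not its plain total. UBB is a ubiquitin gene, and USP14 and UCHL5 encode deubiquitinases that dock on the proteasome. The other genes encode enzymes or factors that act before, beside or upstream of it.

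RNA was sequenced from MDA-MB-231 cells, a mesenchymal breast cancer line that lacks hormone receptors, grown in DMEM with 10% serum. The c-di-GMP group (4 libraries) received 5 µM c-di-GMP for 24 h, and the vehicle group (4 libraries) received phosphate-buffered saline for the same time. c-di-GMP is a cyclic dinucleotide made by bacteria that mammalian cells sense through STING. No label ties the 4 libraries of a group to cultures of their own; the p-values below reflect only how these libraries vary, and that variation may be technical.

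Ubiquitin is a small protein that cells attach to other proteins in a relay of activating (E1), conjugating (E2) and ligating (E3) enzymes. Chains of it send proteins to the proteasome, where deubiquitinases remove and recycle the ubiquitin before the substrate is degraded. Aggregated or chain-tagged cargo can go instead to autophagy, and cells that lack proteasome activity raise proteasome genes through the transcription factor NFE2L1.

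Coding sequences of ubiquitin units are shown first, because their likeness bears on how reads are assigned. UBB encodes 3 head-to-tail units, and RPS27A, shown for comparison, encodes 1 unit fused to a ribosomal protein. The first 60 of the 228 bases of single units are given 5′ to 3′ from GENCODE v29 transcripts, with capitals marking bases that differ from the first unit of UBB.
UBB unit 1: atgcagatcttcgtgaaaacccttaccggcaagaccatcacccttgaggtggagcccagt
UBB unit 2: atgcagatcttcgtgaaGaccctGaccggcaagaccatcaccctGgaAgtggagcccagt
UBB unit 3: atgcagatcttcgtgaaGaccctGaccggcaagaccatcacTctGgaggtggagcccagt
RPS27A unit 1: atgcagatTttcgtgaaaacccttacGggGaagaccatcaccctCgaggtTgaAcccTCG
Over the whole unit, units 2 and 3 of UBB differed from unit 1 at 8 and 12 bases, whereas RPS27A differed at 38. UBB has 1176 windows of 50 bases, and among them 90 distinct sequences occurred more than once in the gene itself. Of its windows, 285 (24.2%) were shared with another annotated gene that does not overlap it, most of them with the pseudogene UBBP4. Windows shared in this way made up 3.74% of UBE2N and 0.35% of USP14, and there were 0 in UBA1, UCHL5, SQSTM1, VCP and NFE2L1. Reads of UBB, and to a smaller part UBE2N, can therefore be split or dropped by the counting, and their levels are uncertain to that extent.

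Stretches of the promoters are shown because NFE2L1 and related factors bind antioxidant response elements, and these genes lie in pathways that such factors are known to act on. The element's core, TGACNNNGC on either strand, was searched from 250 bases before to 50 after each RefSeq start site. It lay in 5 of 15 windows of these genes, from 4 genes, and in 13.3% of all 35116 windows of that length. Each stretch is given 5′ to 3′ on the strand of its gene (GRCh38.p14), with the core in capitals.
UBB at chr17:16381301-16381330: gagggcgaggTGACGCGGCgctgggccttt
UCHL5 at chr1:193059392-193059421: gcgctgcaggTGACGGCGCccggaggctgt
USP14 at chr18:158521-158550: tttgcgtgttGCTGCGTCAtcgccagtggc
VCP at chr9:35072795-35072824: tgcggccaatTGACGTGGCgttactaggcg
UBB has 2 start sites in RefSeq, and its core lay at 21 to 29 from the one and at -30 to -22 from the other. The cores of UCHL5, USP14 and VCP lay before the start site, at -51 to -43, -26 to -18 and -189 to -181. A heat shock element pair, GAANNTTC, was in 0 of the 15 windows and in 6.8% of all windows. The CCAAT box was in 4 of the 15 and in 34.6% of all. A match of letters is a description only and is no measure of binding in these cells.

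The libraries held 16151360 to 18040010 counts, so that 3 counts stood for 0.156 to 0.175 CPM (counts after TMM scaling to library size) in 7 of them and 0.268 CPM in vehicle replicate 3, a limit that covers counting error only. The 8 genes had 839 to 12615 counts in a library, far above it. Levels of cell markers are given as CPM on library totals without TMM. Markers of the line were present, with VIM at 638 to 1458 CPM and CD44 at 691 to 891 CPM, and AXL, CAV1 and KRT18 at 238 CPM or more. CDH1 and ERBB3 reached 4.11 and 11.8 CPM, and ESR1 and PGR were not listed in the count table. Of markers of other cells, PECAM1 reached 11.98 CPM and LYZ 0.911 CPM, and PTPRC, CD3E, VWF and HBB were not listed. Vehicle replicate 3 differed from every other library: its TMM factor was 0.664 against 1.05 to 1.07, 465 listed genes had no count in it against 2 to 9, and mitochondrial transcripts made up 1.40% of its counts against 3.58% to 5.00%. Log2 fold changes of the 8 genes are therefore given with all 8 libraries and without that library, as 4 c-di-GMP against 3 vehicle libraries. Those of other genes are from these 7 libraries unless all 8 are named, and some have the opposite sign with all 8.

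Without vehicle replicate 3, UBE2N, UCHL5 and USP14 were higher after c-di-GMP and UBA1, SQSTM1 and NFE2L1 were lower, each by less than 1.2-fold, while UBB and VCP did not pass the test. These 6 of 8 calls (edgeR quasi-likelihood test, adjusted p under 0.05) stand against 29.6% of 15647 genes called, 13.5% higher and 16.2% lower. The groups did not overlap for the same 6 genes, and across all genes tested 17.3% were non-overlapping on the higher side and 18.3% on the lower side. Among the vehicle libraries other than replicate 3, replicate 1 lay farthest from the c-di-GMP libraries for each of the 6, and all 6 were still called without it. With all 8 libraries edgeR called 0 of the 8 genes, 0 of them at an unadjusted p under 0.05, and limma-voom called 0. DESeq2 called 1, USP14. Of all 15415 genes tested with 8 libraries, edgeR called 0%, and 6.23% had an unadjusted p under 0.05. The median log2 fold change of the 8 genes was 0.01 with 8 libraries and -0.02 with 7, beside -0.05 and 0.00 over all genes tested.

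**Figure D1:**
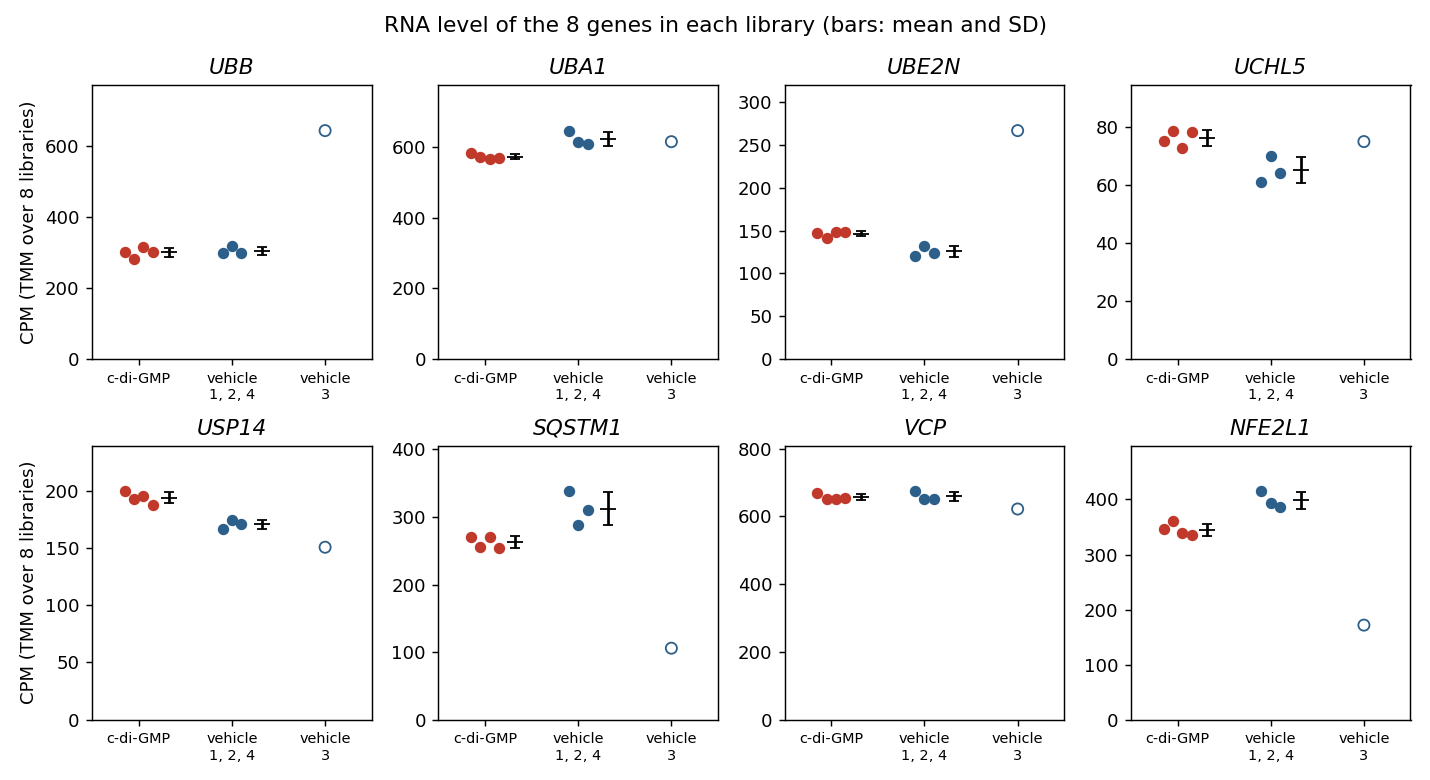
RNA levels of the 8 genes in CPM (TMM scaling over all 8 libraries) for c-di-GMP libraries (red), vehicle replicates 1, 2 and 4 (blue) and vehicle replicate 3 (open circle); bars are mean and SD. Vehicle replicate 3 is highest for UBB and UBE2N, at 643 and 267 CPM, and lowest for SQSTM1 and NFE2L1, at 106 and 172 CPM.

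UBB (ENSG00000170315, GRCh38 chromosome 17, 16380798 to 16382745, plus strand), which supplies polyubiquitin, had overlapping levels in the 2 groups and 1 high value, in vehicle replicate 3. It stood at 302, 282, 314 and 301 CPM in c-di-GMP libraries 1 to 4, against 298, 317 and 298 CPM in vehicle replicates 1, 2 and 4 and 643 CPM in vehicle replicate 3. The groups overlapped, and the single high value was the vehicle library that stood apart. The log2 fold change was -0.03 ± 0.04 (SE) without that library, with a 95% interval from -0.11 to 0.06, and -0.38 ± 0.27 with it (edgeR adjusted p = 0.690 and 0.632). The high value depends in size on the scaling, since UBB took 0.0426% of the raw counts of vehicle replicate 3 and 0.0299% to 0.0337% of those of the other 7 libraries. Exons of AC093484.3, which is not listed in the count table, overlap 28.4% of the bases of UBB exons on the opposite strand.

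RPS27A, a ubiquitin-ribosomal fusion gene, averaged 336 ± 14.8 CPM (SD, n = 4) in c-di-GMP libraries and 289.5 ± 17.1 CPM (SD, n = 3) in vehicle libraries other than replicate 3. Its log2 fold change was 0.21 ± 0.05 with 7 libraries and 0.13 GC-corrected, that is with each library's trend over transcript GC content taken out (edgeR adjusted p = 0.00117 and 0.0182). With all 8 libraries it was -2.81, opposite in sign, and did not pass. RPS27A made up 0.5675% of the counts of vehicle replicate 3 and 0.0287% to 0.0369% of those of every other library. RPS27A shared 28.5% of its windows of 50 bases with other genes, and the only one of 10 near-identical gene copies searched in the count table, RPS27AP16, had 149 CPM in vehicle replicate 3 and 6.68 to 10.1 CPM elsewhere.

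UBA1 (ENSG00000130985, chromosome X, 47190861 to 47215128, plus strand), the main ubiquitin-activating enzyme, was lower after c-di-GMP. It stood at 584, 573, 566 and 568 CPM in c-di-GMP libraries, against 646, 614 and 608 CPM in vehicle replicates 1, 2 and 4 and 615 CPM in vehicle replicate 3. Every c-di-GMP library lay below every vehicle library, replicate 3 included, a separation that 7.29% of all genes showed on the lower side with 8 libraries. It depends on the TMM factor of replicate 3: on library totals without TMM, UBA1 stood at 599 to 617 CPM in c-di-GMP libraries and at 408 CPM in replicate 3, and the 8-library log2 fold change turned to 0.022. In log2 units the difference was -0.12 ± 0.04 with 7 libraries (edgeR adjusted p = 0.0197) and -0.12 ± 0.11 with 8 (adjusted p = 0.684). UBA1 missed the threshold without c-di-GMP replicate 3 or 4 (adjusted p = 0.0598 and 0.0564). The second ubiquitin-activating enzyme, UBA6, averaged 129 ± 2.95 CPM (SD, n = 4) in c-di-GMP libraries and 114 ± 9.83 CPM (SD, n = 3) in vehicle libraries other than replicate 3. UBA6 was higher by 0.18 ± 0.05 on the log2 scale (edgeR adjusted p = 0.00846), opposite in direction to UBA1. GC-corrected, the log2 fold changes of UBA6 and UBA1 were 0.04 and 0.01, and neither passed (edgeR adjusted p = 0.553 and 0.867).

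UBE2N (ENSG00000177889, chromosome 12, 93405673 to 93442262, minus strand), the conjugating enzyme that builds lysine-63-linked chains, was higher after c-di-GMP in the 7 libraries. It stood at 147, 142, 149 and 149 CPM in c-di-GMP libraries, against 121, 132 and 124 CPM in vehicle replicates 1, 2 and 4 and 267 CPM in vehicle replicate 3. The c-di-GMP libraries lay above these 3 vehicle libraries and below replicate 3, so that the direction of the mean difference turns on that library. The log2 fold change was 0.22 ± 0.04 without it (edgeR adjusted p = 0.000533) and -0.14 ± 0.27 with it (adjusted p = 0.849). UBE2V2, a partner without catalytic activity that UBE2N needs for lysine-63 chains, was also higher, at 0.27 ± 0.06 (edgeR adjusted p = 0.0012). UBE2V2 had 0.12 GC-corrected and -0.37 with all 8 libraries, past the threshold in neither (edgeR adjusted p = 0.097 and 0.732). The other such partner, UBE2V1, had a log2 fold change of 0.06 ± 0.12 at 7.49 ± 0.626 CPM (SD, n = 4) after c-di-GMP and 7.16 ± 1.40 CPM (SD, n = 3) with vehicle, and OTUB1, which inhibits UBE2N, had -0.01 ± 0.05 (edgeR adjusted p = 0.754 and 0.915). GC-corrected, OTUB1 was higher at 0.22 ± 0.04 (edgeR adjusted p = 0.00065).

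Of the bases of UBE2N exons, 39.5% are overlapped on the opposite strand by exons of NUDT4, and whether the counting used strand is not given in the sources used here. NUDT4 had a log2 fold change of 0.02 ± 0.05 with 7 libraries (edgeR adjusted p = 0.774), and 66.7 CPM in vehicle replicate 3, against means of 82.5 CPM after c-di-GMP and 81.1 CPM with vehicle without replicate 3. Within a library, UBE2N had 0.252, 0.248, 0.263 and 0.262 counts for each count of UBA1 in c-di-GMP libraries, against 0.187, 0.215 and 0.204 in vehicle replicates 1, 2 and 4 and 0.434 in vehicle replicate 3. The ratio of these 2 genes was thus higher in each c-di-GMP library than in these 3 vehicle libraries, with no correction for GC content. It does not stand for other E2 or E1 genes.

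USP14 (ENSG00000101557, chromosome 18, 158383 to 214629, plus strand), a deubiquitinase that binds the regulatory particle of the proteasome reversibly, was higher after c-di-GMP. It stood at 199, 193, 195 and 188 CPM in c-di-GMP libraries, against 166, 175 and 170.5 CPM in vehicle replicates 1, 2 and 4 and 151 CPM in vehicle replicate 3. The groups did not overlap with or without vehicle replicate 3; with all 8 libraries 6.93% of genes showed this on the higher side. Its log2 fold change was 0.18 ± 0.04 with 7 libraries (edgeR adjusted p = 0.00172) and 0.23 ± 0.10 with 8 (unadjusted p = 0.0504, adjusted p = 0.623, and adjusted p = 0.0498 by DESeq2). Exons of THOC1 overlap 1.8% of the bases of USP14 exons on the opposite strand, and THOC1 was higher too, at 0.23 ± 0.06 (edgeR adjusted p = 0.00518). The groups of USP14 also stayed apart in FPKM and on library totals without TMM, where vehicle replicate 3 stood at 24.3 FPKM and 99.9 CPM.

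UCHL5 (ENSG00000116750, chromosome 1, 193012250 to 193060080, minus strand), the deubiquitinase recruited to the proteasome by the receptor ADRM1, was higher in the 7 libraries as well. It stood at 75.1, 78.8, 72.7 and 78.2 CPM in c-di-GMP libraries, against 61.0, 70.0 and 64.3 CPM in vehicle replicates 1, 2 and 4 and 75.01 CPM in vehicle replicate 3. The c-di-GMP libraries lay above these 3 vehicle libraries, and replicate 3 fell among them on the TMM scale. In FPKM, UCHL5 in replicate 3 was nearly level with the lowest c-di-GMP library, at 10.87 against 10.90 FPKM. On library totals without TMM it was lower in replicate 3 than in every c-di-GMP library, at 49.7 against 77.0 to 83.5 CPM. Exons of TROVE2 overlap 6.8% of the bases of UCHL5 exons on the opposite strand, and TROVE2 was higher as well, at 0.17 ± 0.06 (edgeR adjusted p = 0.0197). UCHL5 had a log2 fold change of 0.22 ± 0.05 without replicate 3 (edgeR adjusted p = 0.00208) and 0.17 ± 0.11 with it (adjusted p = 0.623). The ratio of USP14 to UCHL5 counts was 2.55 ± 0.142 (SD, n = 4) in c-di-GMP libraries, 2.62 ± 0.115 (SD, n = 3) in vehicle libraries other than replicate 3 and 2.01 in replicate 3, so that the 2 deubiquitinases kept a ratio within the spread between libraries across the treatment.

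Among docks and neighbours of these enzymes on the proteasome, which genes were called turned on the GC correction, and ADRM1 was called in opposite directions. ADRM1 was lower by 0.20 ± 0.05 on the log2 scale (edgeR adjusted p = 0.00283), but higher by 0.12 with each library's GC trend taken out (adjusted p = 0.0287). The ratio of UCHL5 to ADRM1 counts was 0.582, 0.586, 0.525 and 0.629 in c-di-GMP libraries, against 0.376, 0.479 and 0.445 in vehicle replicates 1, 2 and 4 and 0.692 in vehicle replicate 3. This ratio was higher in every c-di-GMP library than in these 3 vehicle libraries, and highest in replicate 3, with no correction for GC content. PSMD14, the zinc-dependent deubiquitinase built into the regulatory particle, was higher at 0.12 ± 0.04 and had -0.04 GC-corrected (edgeR adjusted p = 0.0443 and 0.525). The log2 fold changes of PSMD2, the subunit that USP14 docks on, and of the ligases UBE3A and UBE3C, which associate with proteasomes, were 0.05 ± 0.04, 0.10 ± 0.05 and 0.06 ± 0.04 (edgeR adjusted p = 0.354, 0.131 and 0.298). Of the 7 genes of this list, USP14 and UCHL5 included, 3 were higher and 1 was lower, beside 13.5% and 16.2% of all genes. GC-corrected, 2 were higher (ADRM1, and PSMD2 at 0.14, edgeR adjusted p = 0.00274) and 0 lower, beside 8.58% and 6.62%.

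**Figure D2:**
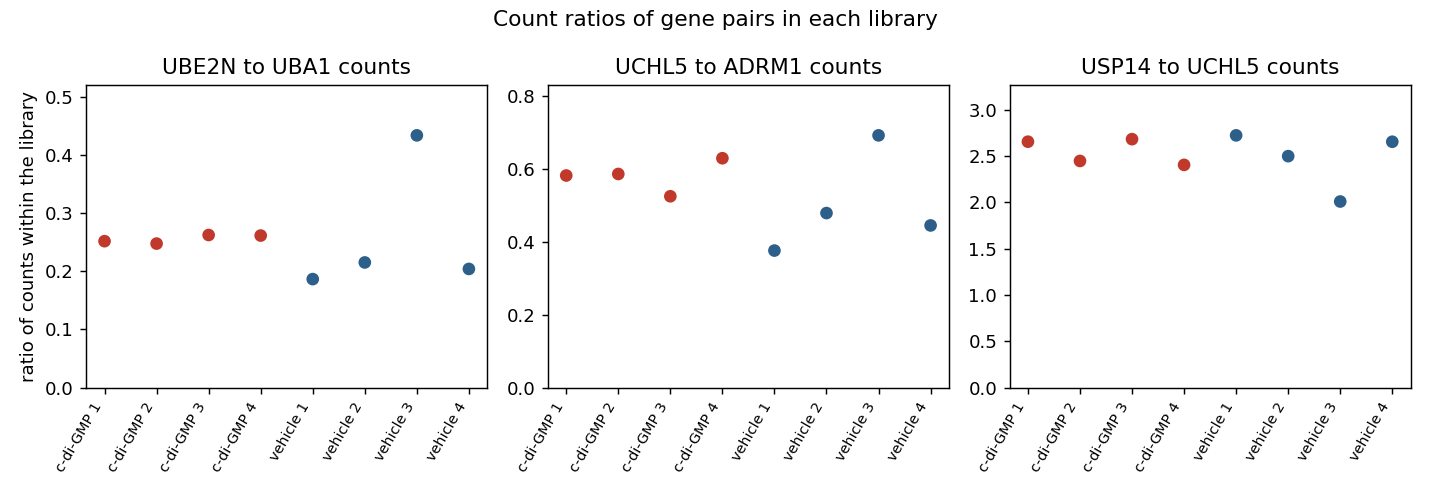
Ratios of counts within each library for UBE2N to UBA1, UCHL5 to ADRM1 and USP14 to UCHL5, with c-di-GMP libraries in red and vehicle libraries in blue. The first 2 ratios are higher after c-di-GMP than in vehicle replicates 1, 2 and 4, with vehicle replicate 3 highest at 0.434 and 0.692, and USP14 to UCHL5 overlaps between these libraries, with vehicle replicate 3 lowest at 2.01.

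SQSTM1 (ENSG00000161011, chromosome 5, 179806398 to 179838078, plus strand), a receptor that carries ubiquitin-tagged cargo to autophagy, was lower after c-di-GMP in the 7 libraries. It stood at 270.4, 256, 271 and 254 CPM in c-di-GMP libraries, against 338, 289 and 310.1 CPM in vehicle replicates 1, 2 and 4 and 106 CPM in vehicle replicate 3. The c-di-GMP libraries lay below these 3 vehicle libraries, and replicate 3 lay below all others. Its log2 fold change was -0.25 ± 0.05 without replicate 3 (edgeR adjusted p = 0.000311) and 0.01 ± 0.32 with it (adjusted p = 0.993). Exons of MRNIP overlap 20.7% of the bases of SQSTM1 exons on the opposite strand, and MRNIP was lower too, at -0.27 ± 0.06 (edgeR adjusted p = 0.00242), with means of 22.3 CPM after c-di-GMP and 26.9 CPM with vehicle without replicate 3. Of the windows of 50 bases in the longest transcript of SQSTM1, 50.7% lie in an overlapping gene. MGAT4B, whose exons overlap 1.4% of the bases, was lower as well, at -0.33 ± 0.05 (edgeR adjusted p = 8.81e-06), with means of 197 CPM after c-di-GMP and 247 CPM with vehicle without replicate 3. Without strand the reads of these overlaps cannot be told apart.

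VCP (ENSG00000165280, chromosome 9, 35056064 to 35073249, minus strand), the ATPase that pulls ubiquitin-tagged proteins out of membranes and complexes, varied least of the 8 genes over the 7 libraries (root mean square deviation of log2 CPM 0.0201). It stood at 668, 651, 651 and 655 CPM in c-di-GMP libraries, against 674, 651 and 651 CPM in vehicle replicates 1, 2 and 4 and 622 CPM in vehicle replicate 3. The groups overlapped, and replicate 3 lay close below the rest. The log2 fold change was -0.01 ± 0.04 with 7 libraries, with a 95% interval from -0.09 to 0.07, and 0.02 ± 0.11 with 8 (edgeR adjusted p = 0.892 and 0.963). Of the VCP cofactors that form its main substrate adaptor, UFD1 was higher at 0.20 ± 0.06 and NPLOC4 had -0.07 ± 0.04 (edgeR adjusted p = 0.0156 and 0.241). UFD1 had 0.16 GC-corrected and -0.45 with all 8 libraries, past the threshold in neither (edgeR adjusted p = 0.0527 and 0.686). The ratio of VCP to NPLOC4 counts was 2.56 ± 0.0617 (SD, n = 4) in c-di-GMP libraries and 2.46 ± 0.0707 (SD, n = 3) in vehicle libraries other than replicate 3.

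NFE2L1 (ENSG00000082641, chromosome 17, 48048329 to 48061487, plus strand), a transcription factor of proteasome genes that is held in the endoplasmic reticulum and itself degraded through VCP, was lower after c-di-GMP in the 7 libraries. It stood at 346, 360.3, 339 and 335 CPM in c-di-GMP libraries, against 415, 394 and 386 CPM in vehicle replicates 1, 2 and 4 and 172 CPM in vehicle replicate 3. The c-di-GMP libraries lay below these 3 vehicle libraries, with replicate 3 lowest of all. Exons of AC004477.2 overlap 3.3% of the bases of NFE2L1 exons on the opposite strand. The log2 fold change of NFE2L1 was -0.21 ± 0.04 without replicate 3 (edgeR adjusted p = 0.000527) and 0.01 ± 0.26 with it (adjusted p = 0.990). DDI2, the protease that cleaves NFE2L1 into its active form, and NGLY1, which removes its sugars, had log2 fold changes of 0.07 ± 0.06 and 0.13 ± 0.06 (edgeR adjusted p = 0.345 and 0.118). The related factor NFE2L2 had 0.03 ± 0.05 (edgeR adjusted p = 0.625). The ratio of NFE2L1 to NFE2L2 counts was 3.91 ± 0.308 (SD, n = 4) in c-di-GMP libraries, 4.63 ± 0.288 (SD, n = 3) in vehicle libraries other than replicate 3 and 1.79 in replicate 3. This ratio has no correction for GC content, and GC-corrected the log2 fold changes of NFE2L1 and NFE2L2 were -0.11 and -0.02.

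**Figure D3:**
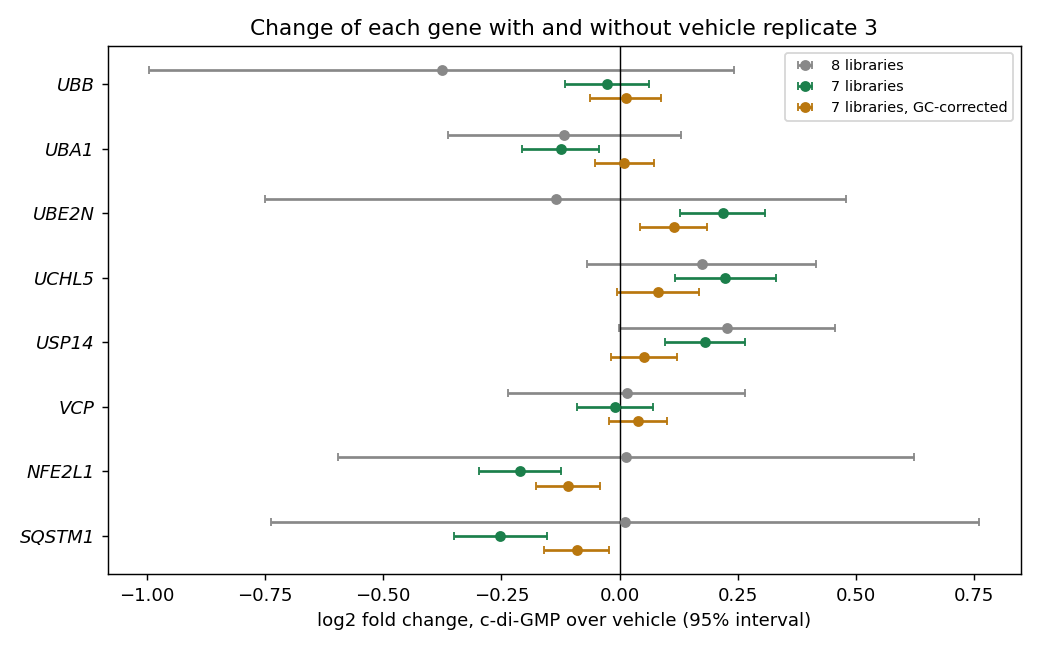
Log2 fold change, c-di-GMP over vehicle, of each gene with its 95% interval, from all 8 libraries (grey), 7 libraries (green) and 7 libraries with the GC trend taken out (orange). Intervals narrow without vehicle replicate 3, the signs of UBE2N, VCP, NFE2L1 and SQSTM1 differ between the grey and green points, and the orange points lie nearer to 0 for the 6 genes called in green.

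Per length, UBB was the most abundant of the 8 genes and UCHL5 the least. In FPKM, c-di-GMP libraries averaged 185 ± 8.01 for UBB, 120.5 ± 1.58 for VCP, 88.8 ± 1.33 for UBA1 and 59.1 ± 2.04 for NFE2L1 (SD, n = 4). The vehicle libraries other than replicate 3 averaged 186 ± 6.91 for UBB, 119.7 ± 2.43 for VCP, 95.6 ± 3.18 for UBA1 and 67.5 ± 2.58 for NFE2L1 (SD, n = 3). Below these stood SQSTM1, USP14, UBE2N and UCHL5, at 34.3 ± 1.19, 32.3 ± 0.845, 23.3 ± 0.468 and 11.4 ± 0.420 FPKM after c-di-GMP and at 40.3 ± 3.17, 28.1 ± 0.719, 19.8 ± 0.956 and 9.66 ± 0.676 FPKM with vehicle. Neighbours in this order did not overlap in the c-di-GMP libraries except SQSTM1 and USP14, at 33.0 to 35.3 and 31.2 to 33.3 FPKM. The FPKM values divide by the length of all exons of a gene. Divided by the longest transcript instead, UBA1 passed VCP, at 161 against 149.9 after c-di-GMP and 173 against 149 with vehicle, and SQSTM1 passed NFE2L1, at 87.8 against 72.1 and at 103 against 82.4.

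The direction of the 6 calls followed the GC content of the transcripts. The 3 genes that were higher had the lowest GC content, 35.2% for UCHL5, 38.1% for USP14 and 41.7% for UBE2N. The 3 that were lower had the highest, 55.2% for NFE2L1, 57.0% for UBA1 and 58.0% for SQSTM1, and UBB and VCP lay between at 51.5% and 51.9%. Genes within 1 percentage point of GC of each had median log2 fold changes of the same sign: 0.14, 0.13 and 0.11 for UCHL5, USP14 and UBE2N, and -0.10, -0.13 and -0.17 for NFE2L1, UBA1 and SQSTM1. For UBA1, at -0.12, the median of its GC neighbours was close to its own log2 fold change. The median was smaller in size than the gene's own value for UCHL5, USP14 and UBE2N, at 0.22, 0.18 and 0.22. This also held for NFE2L1 and SQSTM1, at -0.21 and -0.25.

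When each library's GC trend was taken out, UBE2N was still higher by 0.11 ± 0.03 and NFE2L1 still lower by 0.11 ± 0.03 in log2 units (edgeR adjusted p = 0.0237 and 0.0224). The other 4 missed the threshold, with UCHL5 at 0.08 ± 0.04, USP14 at 0.05 ± 0.03, SQSTM1 at -0.09 ± 0.03 and UBA1 at 0.01 ± 0.03 (edgeR adjusted p = 0.216, 0.345, 0.0669 and 0.867). The 2 of 8 genes called stand against 15.2% of all genes, 8.58% higher and 6.62% lower. UBB and VCP stood at 0.01 ± 0.04 and 0.04 ± 0.03, and neither passed. The GC-corrected CPM of the groups did not overlap for UBE2N and VCP, higher after c-di-GMP, and NFE2L1, lower, and 12.9% and 10.7% of all genes were non-overlapping on these sides.

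**Figure D4:**
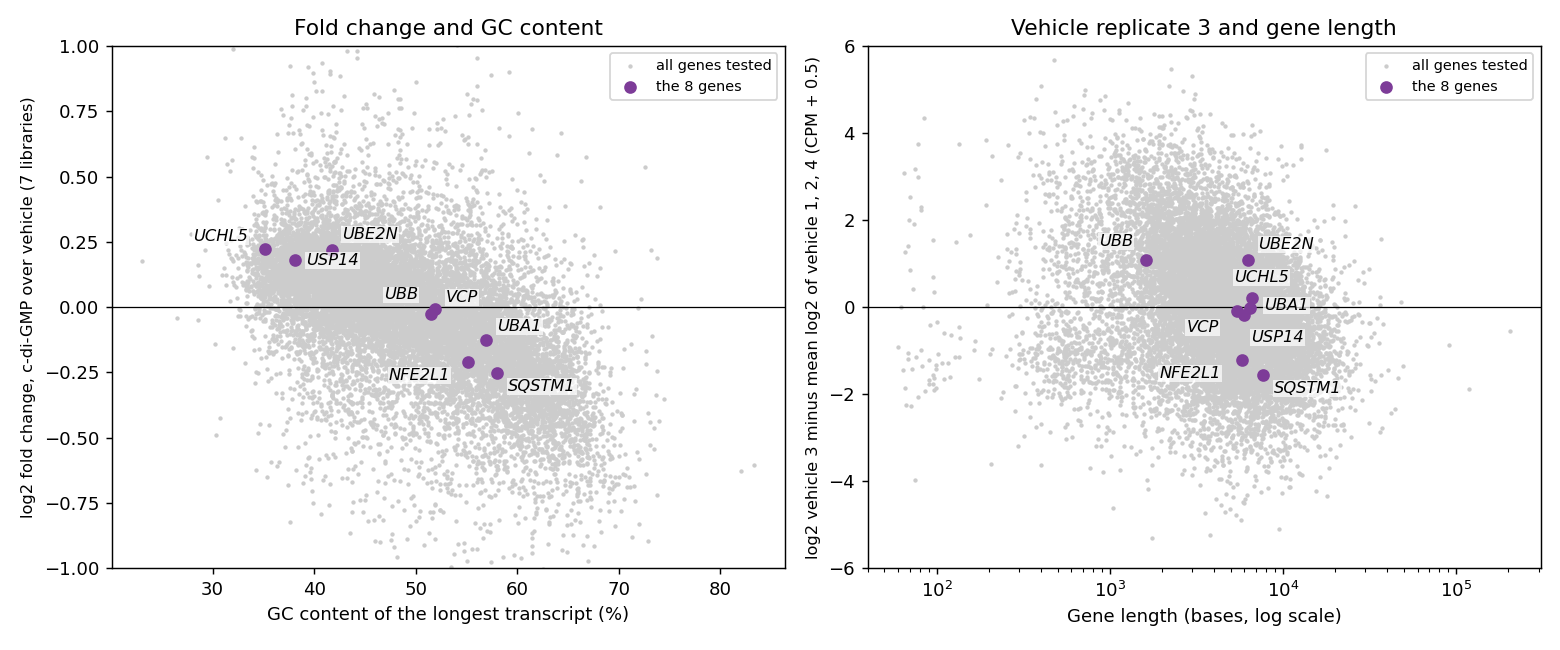
Left, log2 fold change with 7 libraries against the GC content of the longest transcript for all genes tested (grey) and the 8 genes (purple); 66 genes lie beyond the vertical axis. Right, log2 level of vehicle replicate 3 minus the mean of the other vehicle libraries against gene length (log axis): UBB and UBE2N lie at 1.08 each, SQSTM1 at -1.55 and NFE2L1 at -1.21.

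Vehicle replicate 3 did not shift the 8 genes together. Relative to the mean of the other vehicle libraries, its CPM were 2.11-fold for UBB and 2.12-fold for UBE2N, 0.339-fold for SQSTM1 and 0.432-fold for NFE2L1, and between 0.883-fold and 1.152-fold for USP14, VCP, UBA1 and UCHL5. By the bases of all exons, UBB is the shortest of the 8, with 1621, and SQSTM1 the longest, with 7654. By the longest transcript, SQSTM1, with 2986 bases, is instead the shortest after UBB, with 1225. UBE2N and NFE2L1, with 6269 and 5825 bases of exons, lay on opposite sides. Whether length had a part in these ratios was not tested. These ratios are on the TMM scale: on library totals UBA1 and VCP stood at 408 and 412 CPM in replicate 3, against 649 to 679 and 691 to 709 CPM in the other vehicle libraries. The differences of UBB and UBE2N exceeded those of 79.3% and 79.5% of all genes, and those of SQSTM1 and NFE2L1 exceeded those of 12.4% and 18.8%.

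Beyond the 8 genes, 123 genes of 11 role lists were tested in the same fits, the 8 among them. With 7 libraries 29 were higher and 21 lower, with a median log2 fold change of 0.07 beside 0.00 over all genes, of which 13.5% were higher and 16.2% lower. With GC trends taken out, 17 were higher and 7 lower, beside 8.58% and 6.62% of all genes, and with all 8 libraries 0 were called. The 29 higher genes had a median GC content of 41.7% and the 21 lower ones 59.3%, beside 41.6% and 59.8% for all genes called higher and lower. Of the 29 higher genes 16 had the opposite sign with all 8 libraries, as had 5 of the 21 lower ones.

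Of 29 genes of conjugating enzymes 11 were higher and 4 lower, beside 13.5% and 16.2% of all genes, and 6 and 2 with GC trends taken out, beside 8.58% and 6.62%. UBE2T, which acts in DNA crosslink repair, was higher by 0.27 ± 0.05 and UBE2S, which extends chains for the anaphase-promoting complex, lower by 0.26 ± 0.05 in log2 units (edgeR adjusted p = 0.000389 and 0.000388). Both were also called with GC trends taken out, at 0.16 and -0.15 (edgeR adjusted p = 0.0214 and 0.00665). Both had extreme levels in vehicle replicate 3, 215 CPM for UBE2T against 43.3 to 56.4 CPM elsewhere and 2693 CPM for UBE2S against 259 to 366 CPM. UBE2O was lower by 0.28 ± 0.05 and missed the threshold with GC trends taken out (edgeR adjusted p = 0.000442 and 0.079).

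Of 11 genes of the route of NFE2L1, 5 were lower and 0 higher, beside 16.2% and 13.5% of all genes. Besides NFE2L1 these were HCFC1 and the small MAF proteins MAFF, MAFG and MAFK, with which NFE2L1 pairs on DNA. MAFK was lower by 0.31 ± 0.05 and MAFF by 0.26 ± 0.05 in log2 units (edgeR adjusted p = 3.99e-05 and 0.000238). With GC trends taken out, MAFK had -0.02 and MAFF 0.00, and 2 of the 11 genes were called lower, NFE2L1 among them, beside 6.62% of all genes.

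Among the 27 tested genes of VCP cofactors and of degradation from the endoplasmic reticulum, 4 were higher and 3 lower, near the shares over all genes of 13.5% and 16.2%. GC-corrected, 2 were higher and 2 lower, beside 8.58% and 6.62%. DERL2, a membrane protein of that route, was higher by 0.26 ± 0.05 and PLAA, a ubiquitin-binding VCP cofactor, by 0.24 ± 0.05 (edgeR adjusted p = 0.000642 and 0.000729). With all 8 libraries they had -0.12 and 0.14, past the threshold for neither. With GC trends taken out they were higher by 0.13 and 0.14 (edgeR adjusted p = 0.0492 and 0.0284). The VCP cofactors UBXN6 and ASPSCR1 were lower by 0.36 ± 0.06 and 0.35 ± 0.08 (edgeR adjusted p = 3.94e-05 and 0.00177), and had -0.05 and -0.02 with GC trends taken out, past the threshold for neither. Of the 12 autophagy receptors and partners 2 were higher and 3 lower, SQSTM1 among the lower, beside the same shares. TAX1BP1, another autophagy receptor for ubiquitin-tagged cargo, was higher by 0.14 ± 0.04 and by 0.12 with GC trends taken out (edgeR adjusted p = 0.0112 and 0.0135), opposite to SQSTM1.

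**Figure D5:**
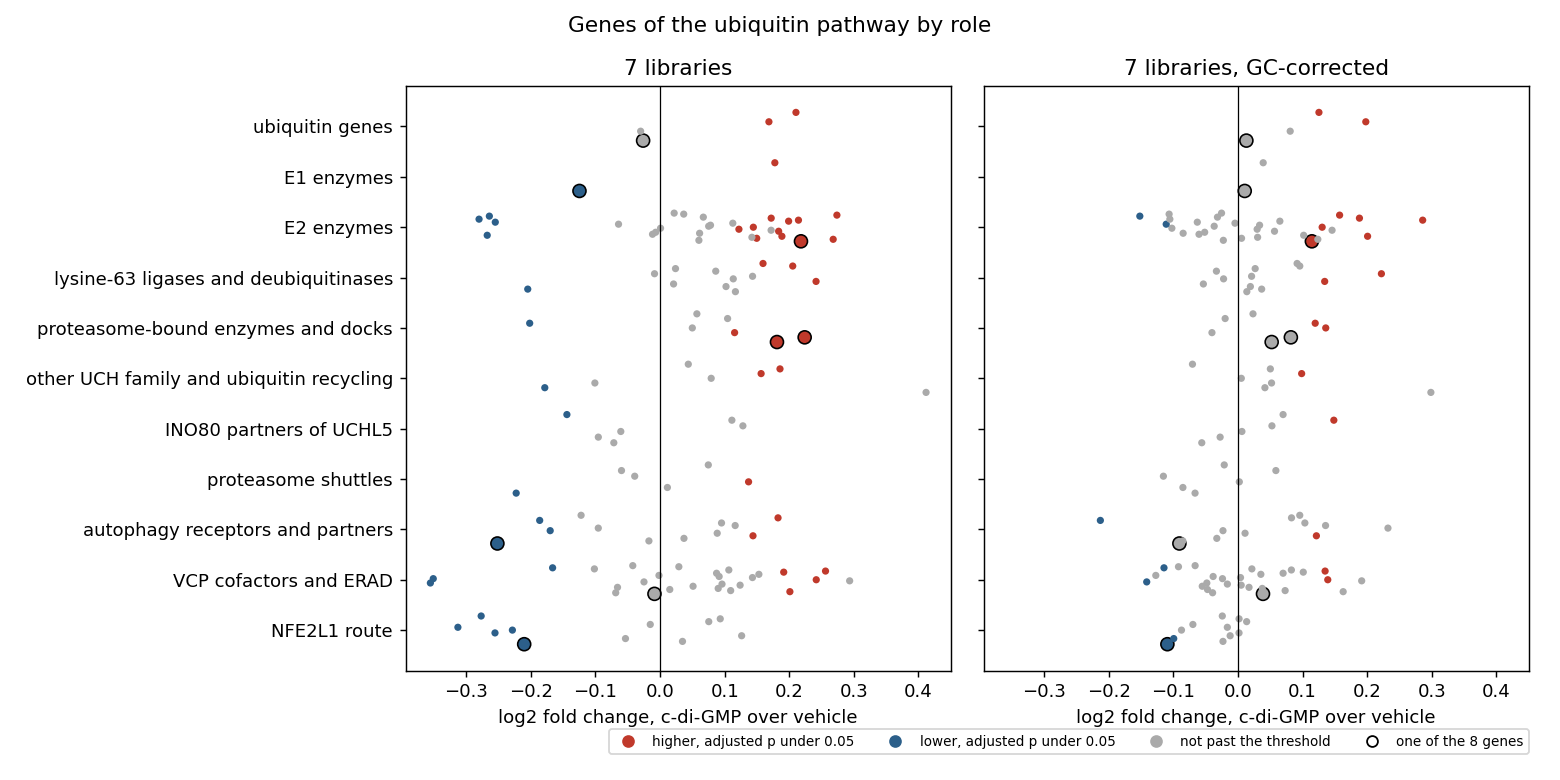
Log2 fold change, c-di-GMP over vehicle, of genes by role list with 7 libraries (left) and with GC trends taken out (right); red is higher and blue lower past the threshold, and ringed points are the 8 genes. On the left 29 genes are red and 21 blue, and on the right 17 and 7.

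The patterns over the 7 libraries most like those of the 8 genes were found among 9843 other genes with a mean of at least 10 CPM, by the root mean square difference of mean-centred log2 CPM. HMGB2 was nearest to UBE2N, at a difference of 0.00677, then MTCH2 at 0.0136 and CCT6A at 0.0151. ARHGAP11A, DHX29 and NFU1 were nearest to UCHL5, DIS3, TMEM230 and RAE1 to USP14, and DLGAP4, AKT2 and SPATA20 to NFE2L1. NR1H2, UBE2J2 and USP19 were nearest to SQSTM1, with UBE2J2 a conjugating enzyme and USP19 a deubiquitinase of the endoplasmic reticulum. The nearest genes were ECHDC2, DLC1 and COG1 for UBA1, NDUFAF3, ACAD8 and NXPE3 for UBB, and SSRP1, RETREG3 and USP40 for VCP. The libraries share depth and GC trends, so the measure describes likeness in these libraries only.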

How the data were processed

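Per the labels' protocols, total RNA was isolated with TRIzol and libraries were made with a NEBNext Ultra kit. The authors deposited a table of read counts per gene and a table of FPKM values. The submitters' processing notes name HISAT2 2.0.5, featureCounts 1.5.0-p3, CASAVA 1.8, DESeq2 1.20.0 and fastp, without roles, and the build mm10, although the tables hold human identifiers whose coordinates equal those of GENCODE v29 on GRCh38. The strand setting is not given in the sources used here. For 22 genes, names turned into dates were restored from the identifiers.

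Counts were tested in R 4.3.3 by edgeR 4.0.16 and its quasi-likelihood F test (filterByExpr with minimum count 10 and minimum total 15, TMM scaling, treatment as the only term, Benjamini-Hochberg adjusted p under 0.05 over all genes tested), with all 8 libraries and with the 7 without vehicle replicate 3. All 8 genes passed the filter. The standard error is the log2 fold change divided by the square root of F, and 95% intervals use the t quantile. The GC-corrected fit added an offset per gene and library, the lowess trend (span 0.3) of that library over transcript GC content. Levels are CPM on the TMM scale of all 8 libraries unless library totals are named, and FPKM are the authors' values. Library totals were 92.4% to 94.4% of the library size implied by the FPKM of the 8 genes in 7 libraries. In vehicle replicate 3 they were 146%, so FPKM are not scaled to plain library totals. The script was tested on simulated counts. Not every same-numbered pair of libraries deviated together, so the samples were treated as sharing only a number.

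Alternatives were DESeq2 1.42.0, limma-voom (limma 3.58.1), other scalings and filters, log2 FPKM with pseudocounts of 1 and 0.1, a replicate block, GC and length corrections, and each library left out. Genes of the wider lists were named by role or as up to 2 of each list and direction with the smallest p in the fit of 7 libraries. HCFC1 and MAFG were named after their values were seen, and opposite-strand neighbours by their overlap. Some genes of the lists are not reported here by name. The 8 genes and the lists were chosen with earlier results of these data known.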

Additional observations from a re-analysis of the deposited data

Results flagged for a closer look

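For 3 of the 8 genes the level in vehicle replicate 3, on the TMM scale, was flagged as far from the other 3 vehicle libraries. Among the 16 groups examined (8 genes, c-di-GMP and vehicle), chance alone flags about 1 in 20. UBB had 643 CPM there, with the nearest vehicle library at 317 CPM, and the gap was 0.944 of the whole range, above Dixon's critical value of 0.829. UBE2N had 267 CPM, with the nearest at 132 CPM and a gap of 0.92 of the range. NFE2L1 had 172 CPM, with the nearest at 386 CPM and a gap of 0.881 of the range. SQSTM1 was not flagged, although it had 106 CPM in vehicle replicate 3 against 289 to 338 CPM in the other vehicle libraries. On library totals without TMM the 3 flagged values were 426, 177 and 114 CPM, with the nearest vehicle library at 337, 140 and 412 CPM. On that scale UBA1 and VCP also lay apart in vehicle replicate 3, at 408 and 412 CPM against 649 to 679 and 691 to 709 CPM. The flags thus depend on the scaling. The same library had the lowest TMM factor and the most listed genes at 0, and the part of these in the 3 values was not tested.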

How the results depend on the processing

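The fit of all 8 libraries rests on vehicle replicate 3. It called 0 genes and 0 of the 8 by edgeR, 134 genes and 1 of the 8 by DESeq2, and 0 to 4633 genes and 0 to 6 of the 8 with each library left out, the highest values without vehicle replicate 3. Leaving out each library moved the log2 fold changes of UBE2N from -0.25 to 0.22, SQSTM1 from -0.25 to 0.16, VCP from -0.0086 to 0.035 and NFE2L1 from -0.21 to 0.12. Without TMM, UBA1 and UBE2N stood at 0.022 and 0.11 with 8 libraries, while the median of all genes shifted by 0.13. With 7 libraries, 4633 genes, 6 of the 8 and 50 pathway genes were called, and 3440 to 4826, 5 to 6 and 39 to 56 with each library left out. The GC correction gave 2378 genes, 2 of the 8 and 24 pathway genes, the GC and length correction 2097, 2 and 25, and the replicate block with the GC correction 1599, 0 and 10. The replicate block alone gave 4093, 5 and 46 with 7 libraries and 0 and 0 with 8, same-numbered libraries correlated at -0.00824 to 0.0599 in the 7 and -0.061 to 0.288 in the 8, and 4 of 6 and 4 of 8 correlated best with their own number. UBA1 turned to 0.010, 0.028 and 0.021 under the 3 settings with a GC correction and missed the threshold with the block (adjusted p = 0.0782 by edgeR). UBB turned to 0.013 with the GC correction and ranged from -0.049 to 0.0021 with each library left out. VCP turned to 0.0095, 0.0096 and 0.0095 in the 3 FPKM fits and to 0.039, 0.045 and 0.045 in the 3 GC settings, and ranged from -0.024 to 0.0089 with each library left out. USP14, UCHL5 and SQSTM1 missed the threshold under all 3 GC settings, and UBE2N and NFE2L1 with the block and GC correction together (adjusted p = 0.104 and 0.106 by edgeR). The causes were not tested. Each of the 8 genes had at least 839 counts in every library.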

Other observations

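In the list of lysine-63 ligases and deubiquitinases, 3 of 12 genes were higher and 1 lower after c-di-GMP with 7 libraries, beside 13.5% and 16.2% of all genes. GC-corrected, 2 were higher, RAD18 and OTUB1, and 0 lower, beside 8.58% and 6.62%. RAD18, a ligase of DNA damage bypass, was higher by 0.24 ± 0.05 and by 0.13 with GC trends taken out, and BRCC3, a deubiquitinase specific for lysine-63 chains, was higher by 0.21 ± 0.06 and had 0.10 GC-corrected (edgeR adjusted p = 0.00119, 0.0412, 0.00819 and 0.247). TRAF2, a ligase adaptor of cytokine signalling, was lower by 0.20 ± 0.05 and had 0.04 with GC trends taken out (edgeR adjusted p = 0.00267 and 0.632).

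Of 7 other tested genes of the UCH family and of ubiquitin recycling, 2 were higher and 1 lower, beside the same shares. USP7 was higher by 0.16 ± 0.04 and by 0.10 with GC trends taken out (edgeR adjusted p = 0.00678 and 0.0464). BAP1, a relative of UCHL5 that acts on histone ubiquitin, was lower by 0.18 ± 0.05 and had 0.04 with GC trends taken out (edgeR adjusted p = 0.0052 and 0.479). Of 6 genes of the INO80 chromatin remodeller, with which UCHL5 also associates, 1 was called, RUVBL2, lower by 0.14 ± 0.05 (edgeR adjusted p = 0.0329). GC-corrected, RUVBL2 had 0.07 (adjusted p = 0.199), and the 1 gene called was RUVBL1, higher by 0.15 (edgeR adjusted p = 0.0109), which was named after its values were seen. Of 6 shuttle factors that carry ubiquitin-tagged proteins to the proteasome, UBQLN1 was higher by 0.14 ± 0.04 (edgeR adjusted p = 0.0119), and 0 of the 6 were called with GC trends taken out.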
